A study of Mus musculus with 6 samples.

Results

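The regions described here are 1320 stretches of open chromatin in mouse intestinal crypts that ranked higher among the peaks of every Arid3a conditional knockout (cKO) library than among those of any wild-type (WT) library. They were chosen from 32147 consensus peaks that had been called in all 6 libraries, out of 69957 consensus peaks on chromosomes 1 to 19. Within each peak list, every peak was given the percentile of its fold enrichment, from near 0 for the weakest peak to 100 for the strongest. Where a list had several peaks in a consensus peak, the highest percentile was kept. A peak was selected when its lowest cKO percentile lay above its highest WT percentile and the group means were at least 5 points apart. The percentiles therefore chose the members, and the values below describe them without a test. The selected peaks were 4.11% of the shared peaks, and the mirror rule selected 1920 peaks that ranked lower in cKO, or 5.97%.

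ATAC-seq, in which the transposase Tn5 cuts and tags accessible DNA, was performed on 3 WT and 3 cKO samples. In cKO animals the floxed Arid3a gene was deleted by a tamoxifen-dependent Cre under the Villin promoter, which is active in intestinal epithelium, so other cells in the preparation kept the gene. Tamoxifen was given to both genotypes for 3 days in a row, and crypts were taken 1 month after the first injection, while ages and the Cre status of the WT animals were not given in the sources used here. The crypts were dissociated to single cells, so a change in the mix of cells and a change of chromatin within cells could not be told apart.

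Arid3a encodes a DNA-binding protein with an AT-rich interaction domain. Crypts hold the stem cells and dividing progenitors of the epithelium, and absorptive and secretory cells arise from them. Accessible regions away from gene starts often act as enhancers, where factors such as HNF4, CDX and GATA proteins bind in intestinal epithelium. AP-1 dimers of Fos and Jun proteins bind open sites in many cell types, often after stimulation. Promoters are commonly rich in CpG and are open in most cells.

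The summit windows of the 6 members with the largest difference between the group means are shown first, because they are the strongest examples of the selection. Each is the plus strand of GRCm38 reaching 100 bp to each side of the summit, 201 bases in all. Capitals mark exact matches on either strand to AP-1 (TGACTCA), HNF4 (CAAAGTCCA or CAAAGTTCA), the ARID3 family (ATCAAA, also ATTAAA) and the GATA factors (AGATAA, also TGATAA). The reverse of ATCAAA is also the end of the TCF pattern CTTTGAT, so these patterns can overlap. Over all shared peaks, 8.23% of such windows held the AP-1 letters, 2.67% HNF4, 12.8% ARID3 and 18.1% GATA. The windows lay at chr5:151296303-151296503 (nearest coding start Stard13), chr9:60501814-60502014 (Thsd4), chr13:74390542-74390742 (Zfp72), chr6:24379953-24380153 (Iqub), chr2:51049313-51049513 (Rnd3) and chr16:68428631-68428831 (Cadm2).
Stard13: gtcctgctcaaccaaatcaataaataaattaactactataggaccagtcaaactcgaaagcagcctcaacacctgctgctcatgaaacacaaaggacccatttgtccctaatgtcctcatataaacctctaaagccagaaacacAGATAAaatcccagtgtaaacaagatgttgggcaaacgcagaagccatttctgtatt
Thsd4: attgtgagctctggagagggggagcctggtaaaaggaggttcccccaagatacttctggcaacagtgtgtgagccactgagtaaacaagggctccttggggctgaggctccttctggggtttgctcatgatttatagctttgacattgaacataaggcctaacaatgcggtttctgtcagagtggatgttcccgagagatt
Zfp72: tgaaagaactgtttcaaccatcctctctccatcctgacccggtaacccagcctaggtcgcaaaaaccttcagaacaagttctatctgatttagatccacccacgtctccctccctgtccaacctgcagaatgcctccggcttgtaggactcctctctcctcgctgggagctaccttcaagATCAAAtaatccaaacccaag
Iqub: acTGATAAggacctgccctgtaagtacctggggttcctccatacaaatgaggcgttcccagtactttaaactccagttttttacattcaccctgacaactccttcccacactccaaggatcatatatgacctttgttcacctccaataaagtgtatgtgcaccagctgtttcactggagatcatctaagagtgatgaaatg
Rnd3: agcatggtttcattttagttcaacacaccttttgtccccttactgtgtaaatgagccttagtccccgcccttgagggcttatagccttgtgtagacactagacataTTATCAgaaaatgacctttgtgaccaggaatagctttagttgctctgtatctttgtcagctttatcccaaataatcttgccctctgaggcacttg
Cadm2: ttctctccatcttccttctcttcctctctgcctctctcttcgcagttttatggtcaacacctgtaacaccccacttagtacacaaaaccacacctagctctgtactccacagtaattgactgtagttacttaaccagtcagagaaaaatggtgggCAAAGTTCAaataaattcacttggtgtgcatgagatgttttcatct
Of these 6 windows, 0 held an AP-1 match, 3 a GATA match, 1 an ARID3 match and 1 an HNF4 match. A match gives the presence of the letters and says nothing of a bound factor.

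The next windows are those of the members with the largest difference that held an AP-1, HNF4 or ARID3 match and were not shown above. They lay at chr8:3234621-3234821 in an intron of Insr, chr5:147963975-147964175 in an intron of Mtus2, chr17:26021842-26022042 at the promoter of Rab11fip3 and chr8:126527319-126527519 nearest to Tarbp1.
Insr: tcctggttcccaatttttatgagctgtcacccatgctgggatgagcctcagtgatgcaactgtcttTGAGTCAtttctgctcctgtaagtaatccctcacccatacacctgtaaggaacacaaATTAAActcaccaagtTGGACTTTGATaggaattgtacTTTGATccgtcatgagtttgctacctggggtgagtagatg
Mtus2: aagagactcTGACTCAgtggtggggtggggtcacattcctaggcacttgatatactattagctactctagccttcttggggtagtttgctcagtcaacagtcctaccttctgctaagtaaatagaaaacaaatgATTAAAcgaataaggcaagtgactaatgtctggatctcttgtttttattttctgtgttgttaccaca
Rab11fip3: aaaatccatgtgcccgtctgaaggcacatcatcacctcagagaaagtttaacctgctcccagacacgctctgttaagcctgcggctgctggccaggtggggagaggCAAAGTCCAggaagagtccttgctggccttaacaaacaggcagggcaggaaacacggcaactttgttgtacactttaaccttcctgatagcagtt
Tarbp1: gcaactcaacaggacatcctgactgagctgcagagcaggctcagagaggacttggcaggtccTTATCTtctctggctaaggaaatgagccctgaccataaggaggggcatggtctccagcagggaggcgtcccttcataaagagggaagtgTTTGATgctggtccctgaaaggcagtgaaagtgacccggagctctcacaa
The Insr window held an AP-1 match 34 bp before the summit, an HNF4 match and 3 ARID3 matches, and 1 of the ARID3 matches overlapped the HNF4 match. The Rab11fip3 window held CAAAGTCCA 6 bp after the summit.

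The libraries were compared before the members were described. The lists held 39773 to 57140 peaks on chromosomes 1 to 19, with the shortest in WT 1 and the longest in cKO 1. The commonest background implied by the fold and p columns, which stands in for depth, was 1.75 fragments per base in cKO 2 and 1.82 to 2.29 in the other 5. Of 2000 sampled peaks per list, 68 had the commonest value in WT 1, 102 in cKO 2 and 145 to 320 in the others. It is therefore only a rough stand-in. Total read numbers were not used here. Across the 32147 shared peaks, the percentiles of cKO 2 were closer in rank to the 3 WT libraries (Spearman correlation 0.883, 0.910 and 0.903) than to cKO 1 (0.820) and cKO 3 (0.841), and cKO 1 and cKO 3 were at 0.918 with each other. WT 1 was likewise closer to cKO 2 (0.883) than to WT 2 (0.877) and WT 3 (0.858). WT 3 was closer to cKO 1, cKO 2 and cKO 3 (0.893, 0.903 and 0.894) than to WT 1, and was at 0.923 with WT 2. The order of the libraries thus did not follow genotype on either side. These correlations are across peaks of the same libraries and describe their order only. Promoter peaks stood above other shared peaks by 31.9, 24.6 and 22.4 points (median) in WT 1, WT 2 and WT 3 and by 18.7, 27.7 and 20.7 points in cKO 1, cKO 2 and cKO 3. WT 1 and cKO 2 thus had the largest contrast within their genotypes, and the part of this contrast in the selection was not tested. Of 9 epithelial genes examined, Vil1, Cdh1, Cldn3 and Cldn7 had a promoter peak in all 6 lists, Epcam and Krt19 in 5, Krt18 in 4, Krt8 in 3 and Krt20 in 1. Of 22 leukocyte genes, 20 had none in any list, Ptprc and the Cd3 genes included, while Lck had one in all 6 and Gzmb in 1. Of 14 stromal genes 8 had none, while Col1a1 and Pdgfra had one in all 6.

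The members differed between the genotypes by a median of 15.9 points, from 5.05 to 45.1. The difference was at least 10 points in 1024 members, at least 20 in 428 and at least 30 in 72. The gap between the lowest cKO and the highest WT library was smaller, with a median of 2.97 points, and it was under 5 points in 897 members. The genotypes were thus apart by rule but often only narrowly.

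Their median percentiles were 46.0, 54.2 and 57.4 in WT 1, WT 2 and WT 3 and 73.4, 66.4 and 71.9 in cKO 1, cKO 2 and cKO 3. Over all shared peaks the medians were 59.3, 67.2 and 69.6 in WT and 69.9, 64.3 and 66.6 in cKO libraries. The members were below the shared median in every WT library and above it in every cKO library. WT 1 was the lowest WT library in 864 members and cKO 2 the lowest cKO library in 763. Without WT 1, the median difference of the same members was 12.7 points, and it was under 5 points in 102. Without cKO 2 it was 17.0 points, and without both libraries 13.7 points.

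The members lay at all strengths and were least frequent among the strongest peaks. Their mean percentile over the 6 lists had a median of 60.8, against 64.9 over all shared peaks and 56.0 in the peaks that ranked lower in cKO. When the shared peaks were divided into 4 equal bins of strength, 2.41% of the strongest bin were members, and 4.11% to 5.28% of the other bins. The difference also had less room near the top of the scale, with a median of 8.24 points in members of the strongest bin and 20.9 in those of the weakest.

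**Figure D1:**
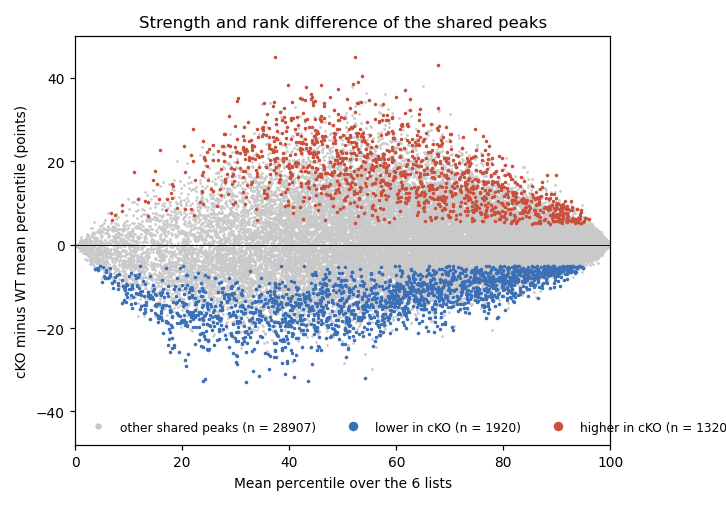
Mean percentile over the 6 lists (x axis) against the cKO minus WT difference of the mean percentiles in points (y axis), 1 point per shared peak, with the 1320 peaks selected as higher in cKO in red, the 1920 selected as lower in blue and the others in grey. Members lie at all strengths, and the largest differences lie in the middle of the scale.

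The 3 members nearest above the limit of 5 points lay near Arl4c, Sdhaf3 and Terb1, with differences of 5.15, 5.06 and 5.05 points. The 3 peaks nearest below it that met the other condition were the promoter peaks of Alkbh8, Ankrd22 and Gpatch3, at 4.99, 4.94 and 4.94 points. These peaks were all strong, at percentiles from 80.5 to 99.5, and peaks on either side of the limit were alike in value. Without WT 1 the differences at Terb1 and Ankrd22 were 3.29 and 1.52 points, and without cKO 1 that at Alkbh8 was 3.05.

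The member with the largest difference, 45.1 points, lay at chr5:151296125-151296720 in an intron of the noncoding gene Gm42906, 62.6 kb from the nearest coding start, that of Stard13. Stard13 encodes a GTPase-activating protein. The percentiles were 34.6, 8.36 and 46.3 in WT 1, WT 2 and WT 3 and 79.0, 59.7 and 85.9 in cKO 1, cKO 2 and cKO 3. The deposited folds behind them were 4.37, 3.44 and 5.76 in WT and 9.60, 6.79 and 9.96 in cKO libraries. The peak was thus below percentile 50 of each WT list and above it in each cKO list, and cKO 2 was the lowest of its genotype.

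In an intron of Thsd4, which encodes an extracellular matrix protein, the percentiles were 19.3, 7.53 and 17.98 in WT and 83.3, 28.2 and 68.2 in cKO libraries. Here cKO 2 stood nearer to the WT libraries than to the other cKO libraries. The Zfp72 peak lay 194 bp after the start of this zinc finger gene, and its percentiles were 15.9, 63.0 and 60.1 in WT and 96.7, 78.2 and 93.3 in cKO libraries. At this peak WT 1 stood far below the other WT libraries, and without it the difference was 27.8 in place of 43.0 points.

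The next members lay between genes. The peak 135 kb from Iqub was at 10.8, 32.4 and 57.1 in WT and 83.7, 59.5 and 78.6 in cKO libraries, and WT 3 and cKO 2 were 2.32 points apart. The peak 99.7 kb from Rnd3, which encodes an atypical small GTPase, was at 22.9, 28.8 and 48.6 in WT and 74.9, 58.4 and 84.0 in cKO libraries. Cell adhesion genes were the nearest to distant peaks, Cadm2 at 808 kb and Cdh20 at 1006 kb. With coding starts this far away, the nearest gene serves only as a name for the place.

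Further peaks among the 12 largest differences lay in introns of Lrrc28 and Chd6, in an exon of Jam2 and 52.4 kb from Tarbp1. Chd6 encodes a chromatin remodeller and Jam2 a junctional adhesion molecule. Their differences ran from 36.0 to 37.7 points and their gaps from 9.92 points at Chd6 to 20.5 at Jam2. The Jam2 peak was at 28.4, 46.3 and 54.3 in WT and 82.7, 74.8 and 83.2 in cKO libraries, so here the cKO libraries lay closer together than the WT libraries. Without WT 1 the differences of the 12 ranged from 26.5 to 47.5 points.

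Promoters held 257 of the members, 19.5%, and 216 of these were promoters of protein-coding genes. Outside these 12, the largest promoter differences were at Rab11fip3, Plxnd1, Gm26938, Gm41414, Phactr1, Unc79, Il20ra and Alox12e. Rab11fip3 encodes a Rab11 effector of recycling endosomes. Its promoter peak was at 14.2, 54.6 and 66.4 in WT and 88.4, 66.5 and 85.3 in cKO libraries. WT 3 and cKO 2 were 0.144 points apart at this promoter, and the difference of 35.0 points was 19.6 without WT 1.

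Plxnd1 encodes a semaphorin receptor, and its promoter peak was at 17.6, 47.2 and 47.8 in WT and 81.3, 61.4 and 74.0 in cKO libraries. Il20ra encodes a receptor subunit for interleukins of the IL-20 family. Its promoter peak was at 27.5, 33.5 and 41.9 in WT and 60.5, 62.7 and 71.8 in cKO libraries, and the 18.6 points between the genotypes exceeded the range of the WT libraries and that of the cKO libraries. At the promoter of Unc79, a subunit of a sodium leak channel complex, the gap was 21.4 points, with percentiles of 46.8, 43.8 and 35.4 in WT and 75.9, 68.2 and 75.3 in cKO libraries. At Phactr1, a regulator of actin and protein phosphatase 1, it was 13.5 points. At the lipoxygenase gene Alox12e it was 1.71 points, since cKO 2 was at 43.9 and WT 2 at 42.2, and the difference of 30.5 points was 16.9 without cKO 1. The promoter peak of Gm26938, a predicted coding gene, differed by 34.6 points. That of the noncoding gene Gm41414 differed by 32.7 points, and by 19.5 without WT 1.

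**Figure D2:**
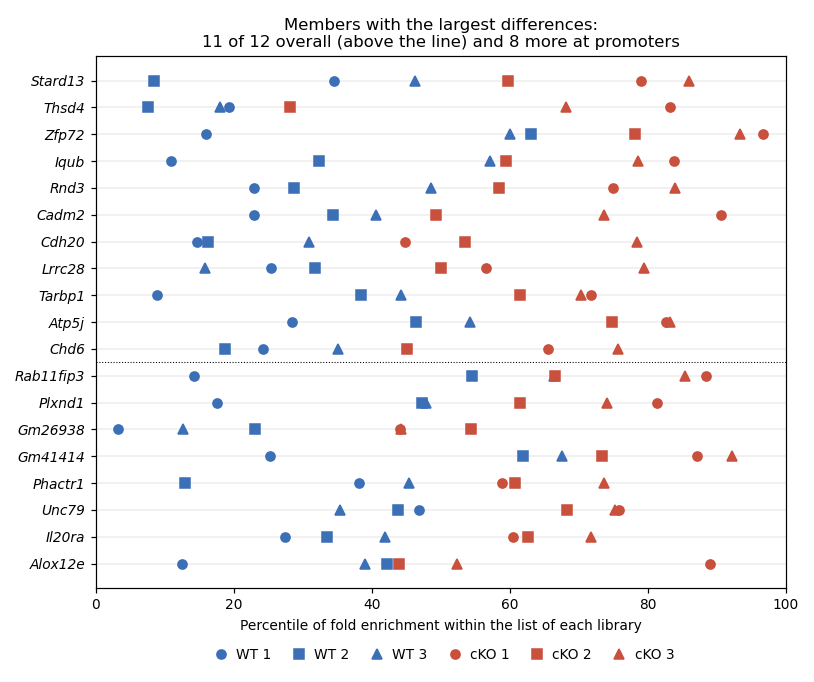
Percentile of fold enrichment in each of the 6 lists (x axis) for 11 of the 12 members with the largest difference, named by the nearest coding gene, and the 8 further promoter members with the largest difference, named by the promoter gene. WT libraries are blue and cKO libraries red, with a circle, square and triangle for replicates 1, 2 and 3. WT 1 is often far to the left, and the square of cKO 2 is often the cKO library nearest to WT.

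The annotation of the members was compared with that of all shared peaks, which the percentiles did not use. Promoters held 19.5% of members (95% Wilson interval 17.4% to 21.7%), 36.8% of shared peaks (36.2% to 37.3%) and 42.4% of the peaks that ranked lower in cKO (40.3% to 44.7%). Introns held 36.7% of members and 31.1% of shared peaks. Between genes lay 35.0% of members and 24.9% of shared peaks. The members thus lay at promoters less often and in introns and between genes more often, by more than the counting error of each share. The median distance to a coding start was 14426 bp for members, 4490 bp for shared peaks and 1810.5 bp for the peaks that ranked lower. More than 50 kb from any coding start lay 21.1% of members and 11.8% of shared peaks.

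The rank difference depended on the class of a peak in all shared peaks, not only in the members. Promoter peaks had a median difference of −1.29 points over all shared peaks, and other peaks 1.16 points. When each percentile was taken among shared peaks of the same annotation class and A+T decile, an alternative chosen after the data were seen, 32.9% of 1680 selected peaks lay at promoters, and 891 of the 1320 members were selected again. The promoter share was below that of all shared peaks in each of the 4 bins of strength, at 10.6%, 15.6%, 17.5% and 46.9% of members against 17.0%, 21.5%, 36.2% and 72.3% of shared peaks from the weakest bin to the strongest.

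The sequence at the members was richer in A and T. The window of 100 bp to each side of the summit had 47.9% ± 9.92 A+T in members, 43.6% ± 11.1 in shared peaks and 41.3% ± 11.6 in the peaks that ranked lower (mean ± SD over 1320, 32147 and 1920 peaks). Outside promoters the means were 50.2%, 48.5% and 47.2%, a smaller distance than over all peaks. The share of members was higher at each step of A+T content, from 1.95% of the lowest of 4 equal bins of A+T content to 3.54%, 4.84% and 6.22%. That of the peaks that ranked lower went the other way, from 7.33% to 4.51%. The libraries themselves differed in the same feature: the median percentile of the bin with the lowest A+T exceeded that with the highest by 31.4, 25.5 and 23.0 points in WT and by 18.8, 28.7 and 17.7 in cKO libraries. In cKO 2 this contrast was larger than in WT 2 and WT 3.

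Motifs were counted as exact letters on either strand of the same window, and 13 were searched. AP-1 letters were in 71 members, 5.38% (95% Wilson interval 4.29% to 6.73%), against 8.23% of shared peaks and 11.98% of the peaks that ranked lower. Only 3.00% of shared promoter peaks held an AP-1 match, so the share was also taken outside promoters. There it was 6.30% of 1063 members (4.99% to 7.93%), 11.3% of shared peaks (10.8% to 11.7%) and 17.9% of the peaks that ranked lower (15.8% to 20.3%). With promoters included, a smaller share of members than of shared peaks held an AP-1 match in each bin of strength. From the weakest bin, the shares were 4.85%, 4.01%, 8.06% and 4.12% against 9.31%, 8.92%, 9.67% and 5.01%. The bins held 330, 424, 372 and 194 members, and no intervals were taken. The smaller distances, 8.06% against 9.67% and 4.12% against 5.01%, were thus not told apart from counting error.

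HNF4 letters were in 41 members, 3.11% (2.30% to 4.19%), and in 2.67% of shared peaks. Outside promoters the order turned, with 3.39% of members (2.46% to 4.65%) and 3.77% of shared peaks, and both intervals include the share of shared peaks. A difference in HNF4 letters was therefore not detectable with these counts.

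ARID3 letters, the A+T-rich core bound by the ARID3 family, were in 252 members, 19.1% (17.1% to 21.3%), against 12.8% of shared peaks and 10.8% of the peaks that ranked lower. Outside promoters the shares were 21.3% (18.9% to 23.8%), 17.2% and 14.9%. From the bin of lowest A+T content to the highest, 1.23%, 9.12%, 17.1% and 32.1% of members held these letters, against 1.68%, 6.11%, 14.4% and 29.7% of shared peaks. Members were thus above shared peaks in 3 of the 4 bins, and the lowest bin held only 163 members. In both sets the share differed more from bin to bin than it did between the sets within a bin.

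GATA letters were in 24.8% of members and 18.1% of shared peaks, and outside promoters in 28.4% (25.8% to 31.2%) and 25.5%. FOX letters (TGTTTAC or TATTTAC), bound by forkhead factors, were in 8.94% of members outside promoters (7.37% to 10.8%) and 7.25% of shared peaks. KLF letters (CCCCACCC or CCCCGCCC), bound by Kruppel-like and SP factors, were in 6.87% (5.50% to 8.55%) and 9.25%, and in 12.6% of the peaks that ranked lower. TCF letters (CTTTGAA or CTTTGAT) were in 10.3% and 9.13%, CDX letters (GCAATAAA, GCCATAAA, GTAATAAA or GTCATAAA) in 8.18% and 8.44% and E-box letters (CAGCTG or CAGATG) in 25.96% and 26.09%, and each of these 3 intervals for members included the share of shared peaks. The CTCF motif was in 2.26% of members and 2.38% of shared peaks outside promoters, and in 0.905% of the peaks that ranked lower. ETS letters (CCGGAAG) were in 1.22% and 2.47%, while CREB (TGACGTCA) and NRF1 matches were in 3 and 0 of the 1063 members, and a count of 0 allows a share of up to 0.282%.

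**Figure D3:**
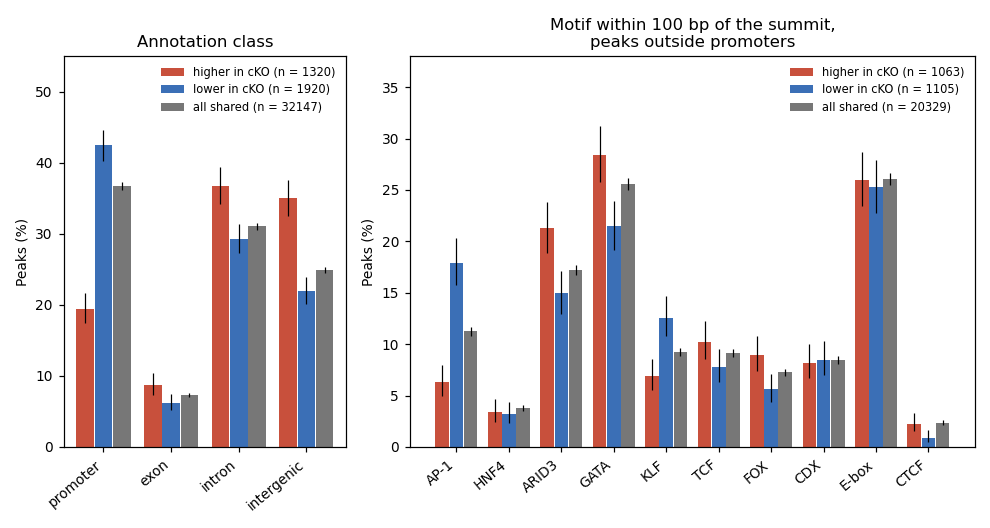
Percent of peaks in each annotation class (left) and, outside promoters, with each of 10 motifs within 100 bp of the summit (right). Bars are the peaks ranking higher in cKO (red), those ranking lower (blue) and all shared peaks (grey), and lines are 95% Wilson intervals. Promoters made up 19.5% of the red and 42.4% of the blue peaks, and AP-1 matches were in 6.30% and 17.9%.

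The same motifs were then followed in each library over all 20329 shared peaks outside promoters, members or not. Peaks with an AP-1 match had a median percentile above that of peaks without one by 3.995, 6.34 and 4.67 points in WT 1, WT 2 and WT 3 and by 1.04, 2.87 and 3.18 points in cKO 1, cKO 2 and cKO 3. Each WT library lay above each cKO library, and cKO 2, which stood with the WT libraries in overall rank, was here on the side of its genotype. For GATA the contrasts were −0.118, −0.335 and 0.380 points in WT and 0.526, 0.417 and 2.49 points in cKO libraries. The genotypes did not overlap for these 2 of the 13 motifs, 15.4%, and for GATA they were apart only narrowly, at 0.380 in WT 3 and 0.417 in cKO 2. With 3 libraries per genotype, some motifs can fall apart in this way by the order of the libraries alone. The 2 of 13 were not told apart from that. For HNF4 the contrasts were 0.416, 1.199 and 1.17 in WT and 2.89, 0.815 and 1.99 in cKO libraries, and cKO 2 lay within the WT range. The ARID3 contrasts, at −0.712, −2.84 and −2.01 in WT and −0.591, −1.70 and 1.32 in cKO libraries, overlapped as well. These contrasts rest on the percentiles that chose the members, and they are given without a test.

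**Figure D4:**
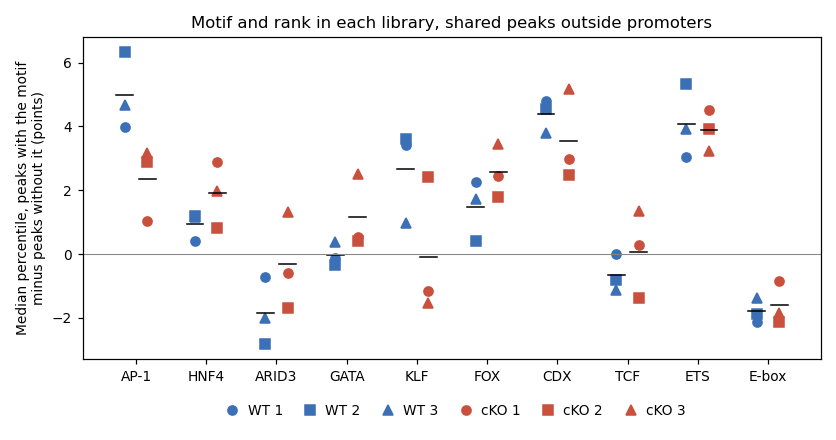
Median percentile of shared peaks outside promoters with a motif minus that of peaks without it, in points (y axis), for 10 motifs, with 1 symbol per library and a line at the mean of each genotype (WT blue, cKO red). For AP-1 the WT libraries are at 3.995 to 6.34 points and the cKO libraries at 1.04 to 3.18.

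Each library was left out in turn and the rule was applied to the other 5. With cKO 1, cKO 2 or cKO 3 left out, 1698, 5001 and 2060 peaks were chosen. Of these, 77.0%, 26.4% and 62.9% ranked above all 3 WT libraries in the cKO library left out. Over all shared peaks the same shares were 32.56%, 20.02% and 25.22%, so cKO 2 was the nearest to its share over all shared peaks. The chosen peaks had been selected for low percentiles in the same WT libraries, which raises such a share by itself. The shares therefore cannot show whether the library left out was displaced or not. The median percentile of the chosen peaks in that library was 69.5, 59.2 and 64.7, against 69.9, 64.3 and 66.6 over all shared peaks, and it was not above the shared median in any of the 3. With WT 1, WT 2 or WT 3 left out, the medians were 47.1, 60.5 and 67.5 in the library left out, below the 59.3, 67.2 and 69.6 of all shared peaks. The chosen peaks were not matched to shared peaks of the same strength, so these medians describe level as well as displacement.

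The genes near the members were grouped by 21 lists of 369 genes in all, such as cell types, pathways and transcription factors. A peak was assigned to the nearest coding start within 50 kb. Of the shared peaks assigned to any coding gene, 3.67% were members and 6.28% ranked lower in cKO. Of the 1110 near a listed gene, 29 were members (2.61%) and 102 ranked lower (9.19%). The 2.61% rests on 29 peaks and no interval was taken, so it was not told apart from the 3.67% near coding genes at large. No interval was taken for the single lists either, which held 0 to 7 members each.

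Epithelial identity genes (Epcam, Vil1, keratins and claudins) had 61 shared peaks nearby, of which 0 were members and 11 ranked lower, with a median difference of −6.71 points. Brush border and digestion genes had 1 member of 71 peaks, lipid absorption genes 1 of 55, nutrient and ion transport genes 2 of 76, and genes of carbohydrate and fat metabolism 0 of 85. In these 4 absorptive lists 6, 6, 3 and 9 peaks ranked lower. The members were the promoter peak of Naaladl1, a peptidase gene, at 29.7, 26.7 and 22.9 in WT and 46.5, 54.8 and 45.2 in cKO libraries, and peaks near Apoa1, Slc40a1 and Slc30a10. The peak 4.22 kb from the apolipoprotein gene Apoa1 was weak in every library, at 2.07 to 6.35 in WT and 7.65 to 19.9 in cKO libraries. Slc40a1 encodes the iron exporter ferroportin, and its intronic peak had 0.709 points between the genotypes.

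Slc30a10, which encodes a manganese exporter, had a member 29.1 kb from its start at chr1:185483084-185484713. Its percentiles were 51.7, 57.0 and 65.6 in WT and 72.6, 67.3 and 70.5 in cKO libraries. The promoter peak of the same gene was not a member: it was at 47.9, 76.5 and 84.9 in WT and 78.3, 70.1 and 70.1 in cKO libraries, and the groups overlapped. The promoter peak of Clec2e, which encodes a C-type lectin-like protein, was at 47.7, 52.9 and 54.7 in WT and 29.0, 63.0 and 33.3 in cKO libraries, with cKO 2 above all WT libraries. At the promoter of Arid3a itself the percentiles were 64.9, 61.3 and 54.6 in WT and 46.7, 56.9 and 43.9 in cKO libraries. There cKO 2 lay within the WT range, and a promoter peak was called in every library, so this peak did not check the deletion.

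Secretory lists had few peaks, and their 0 to 3 members each were too few to be told apart from the 3.67% near coding genes at large. Goblet cell genes had 3 members of 32 shared peaks and 2 that ranked lower. The members were an exon peak of Fcgbp, a mucus protein gene, the promoter of Spink4, a goblet cell marker, and a peak 15.9 kb from Agr2, which encodes a disulfide isomerase needed for mucin. The Fcgbp peak was at 22.2, 58.2 and 60.4 in WT and 86.4, 71.4 and 68.5 in cKO libraries, and its difference of 28.5 points was 16.1 without WT 1, while Spink4 and Agr2 had 1.94 and 1.66 points between the genotypes. Tuft cell genes had 2 members of 19, near Alox5ap, a gene of leukotriene synthesis, and Sh2d6, and 0 that ranked lower. Paneth cell genes had 1 member of 6 shared peaks and 1 that ranked lower. The member lay 10.4 kb from Wnt3, a Wnt ligand made by Paneth cells, at 70.8, 77.7 and 79.8 in WT and 92.0, 87.0 and 91.9 in cKO libraries. Enteroendocrine genes had 0 members and 0 lower peaks of 9.

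Stem cell genes had 3 members of 97 shared peaks and 9 that ranked lower. The members lay near Tnfrsf19, Olfm4 and Hopx, with differences of 20.6, 15.3 and 12.2 points, of which the last 2 were 6.42 and 7.27 points without WT 1. At the Olfm4 peak, 39.6 kb from the start of this stem cell marker, WT 1 was at 52.5 and the other 2 WT libraries at 80.1 and 78.3, while the cKO libraries were at 81.1 to 91.0. Proliferation genes had 1 member of 63, near Myc, and 4 that ranked lower. Regenerative genes had 0 of 21 and villus tip genes 0 of 39, with 1 and 6 that ranked lower.

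Among intestinal transcription factors, 7 of 161 shared peaks were members and 19 ranked lower, with a median difference of −4.69 points. Of the 7 members 3 lay near Rxra, the partner of many nuclear receptors, and 1 lay 40.6 kb from Foxa1, a forkhead factor. The Rxra peak 49.6 kb from its start was at 15.3, 13.4 and 28.2 in WT and 52.6, 36.2 and 34.4 in cKO libraries. The Foxa1 peak was at 70.6, 80.7 and 75.7 in WT and 88.8, 88.1 and 87.8 in cKO libraries, where the 3 cKO libraries lay close together. The other 3, named after their values were seen, lay in introns of Nr1h4, Nr1i2 and Prdm1, which encode a bile acid receptor, a xenobiotic receptor and a transcriptional repressor. ARID genes had 1 member of 39, the promoter of Arid5a, and 2 that ranked lower. AP-1 genes had 2 of 47, both at Jdp2, which encodes a repressor of AP-1, and 4 that ranked lower.

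Signalling lists held 1 or 2 members each, too few to be told apart from the 3.67% of members near coding genes at large. Wnt pathway genes had 1 of 72 (the Wnt3 peak) and 6 that ranked lower, Notch pathway genes 1 of 74 (an exon peak of Mfng, a glycosyltransferase acting on Notch) and 12 that ranked lower, and genes of the TGF-beta and BMP pathway 2 of 99 and 7. The Smad5 peak of that last list was at 12.6, 35.1 and 54.1 in WT and 61.4, 56.1 and 59.7 in cKO libraries, with a difference of 25.2 points that was 14.5 without WT 1, and the Smad3 peak differed by 14.4 points. Both genes encode signal transducers of the pathway. Leukocyte genes had 0 members and 0 lower peaks of 8. Stromal genes had 17 shared peaks with a median difference of 5.49 points, where the 61 peaks of the epithelial list had −6.71. Of the 17 stromal peaks, 2 were members, 11.8%, and 0 ranked lower. These 2 were too few to be told apart from the 3.67% near coding genes at large. The members lay near Tek, an endothelial receptor kinase, and in an intron of Acta2, smooth muscle actin, and neither gene had a promoter peak in any list. Of the 14 stromal genes, 3 to 4 had a promoter peak in the WT lists and 3 to 5 in the cKO lists, and the part of stromal cells in the selection was not tested.

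The members were spread over the genome. On each of the 19 chromosomes they made up 3.11% to 5.14% of the shared peaks. When members with summits within 50 kb of the next were joined, 1169 stood alone and 151 fell into 72 groups, of which 7 held 3 members. These groups were found after the values were seen. Of these 7, the group with the largest single difference lay 36.9 to 87.9 kb from Myc, which encodes a transcription factor of growth and division. Of its 3 peaks, that at chr15:61896983-61898202 was at 4.10, 20.6 and 43.0 in WT and 53.8, 45.6 and 58.4 in cKO libraries, and that at chr15:61905093-61905808 was at 93.7, 89.5 and 92.7 in WT and 96.5, 97.3 and 97.9 in cKO libraries. Members of 1 locus thus had very different strengths.

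In introns of Rbm20, which encodes a splicing regulator, 3 of the 8 shared peaks between the first and the last were members, with differences of 27.8, 24.7 and 14.5 points. The 3 intronic peaks of Nme7 were all the shared peaks in their span of 31.5 kb. Further groups of 3 lay at Kdm2b, Orai1 and Morn3, near Ywhaz, and at Neu4 and Pdcd1. The span at Kdm2b, Orai1 and Morn3 held 11 shared peaks, of which 3 were members and 1 ranked lower in cKO. In the spans near Ywhaz and at Neu4 and Pdcd1, the 3 members were all the shared peaks.

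Shared peaks close to members were examined last. Within 10 kb of a member lay 573 other shared peaks, and their median difference was −0.821 points, with 46.1% above 0, against −0.107 points and 49.2% over all shared peaks. Within 10 kb of the peaks that ranked lower lay 1969 other shared peaks, with a median of −3.12 points and 30.4% above 0. The neighbours of members were thus not displaced in the direction of the members, whereas those of the lower set were displaced in its direction. These shares rest on the same percentiles and on no test.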

How the data were processed

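ATAC-seq of intestinal crypts from 3 WT and 3 cKO samples was analysed from the peak lists, and groups came from the sample labels. The labels do not say that the samples were separate animals. The authors trimmed reads with Trim Galore, aligned them with BWA to GRCm38, removed blacklisted regions and called narrow peaks with MACS for each sample, with no input described. The deposited lists give a score, a fold enrichment (the ratio of the summit pileup to the local background), a −log10 p and a −log10 q for each peak, all values of the authors. Reads were not counted over peaks. The fold was ranked within each list and was not tested between samples. A depth cannot be read off the lists directly. A background per base was inferred for each list from 2000 peaks as the value for which the fold and the Poisson p agree on a whole pileup within 0.01.

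Lists were merged on chromosomes 1 to 19 where peaks shared at least 1 base. Genes came from GENCODE M21 and sequence from GRCm38.p6, and all peaks ended within the reference lengths. A promoter was 1000 bp upstream to 100 bp downstream of a start. Wilson intervals at 95% cover counting error alone. A count of 0 was given the limit of 3 counts. The rule, motifs, gene lists and comparisons were chosen with earlier results of these data known. Named peaks were the 12 members with the largest difference, the 8 further promoter members, up to 3 members per gene list, the 3 on either side of the limit, the promoters of Arid3a, Clec2e and Slc30a10, and 2 members per AP-1, HNF4 and ARID3 motif. Some of the named peaks and groups of members are not reported here. GATA matches were added to the printed windows after the values were seen. Comparisons rest on no test, so no p is given. Alternatives were other rankings, filters, merging rules, windows and libraries left out. Scripts used Python 3.11.15, numpy 2.4.6, pandas 2.3.3, scipy 1.17.1, pysam 0.24.0 and matplotlib 3.10.9.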

Additional observations from a re-analysis of the deposited data

How the results depend on the processing

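The promoter share of the members was below that of all shared peaks under each of 19 alternatives, A+T content was above it under each of 21, the AP-1 share below it under each of 21 and the ARID3 share above it under each of 21. The HNF4 share was above it under 20 of 21 and below it outside promoters. The number of members stayed within 1.5 times of 1320 under 13 of 18 alternatives. With 1 library left out, fewer lists had to be apart, and 1704 to 5239 peaks were selected, past that range without WT 2 (2312), WT 3 (3774), cKO 2 (5239) and cKO 3 (2078). With WT 1 and cKO 2 left out together, an alternative added after the data were seen, 6946 higher and 9325 lower peaks were selected, with 15.3% promoters, 49.0% A+T and AP-1 in 7.37%. The balance of both sets depended on the ranking: 1754 higher and 1703 lower peaks among shared peaks alone, and 1630 and 426 when ranked by −log10 p.

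Leaving out 1 library gave promoter shares of 16.6% to 22.1%, A+T contents of 46.9% to 49.0%, AP-1 shares of 5.15% to 7.75% (the highest without cKO 2, against 8.36% of shared peaks), HNF4 shares of 3.17% to 4.33% (the highest without cKO 2, against 2.71%) and ARID3 shares of 17.2% to 20.1%. Promoter shares were 15.3% with a limit of 10 points, 25.98% with no limit, 25.9% with −log10 q of at least 5, 23.2% with promoters 500 bp to either side and 32.9% with percentiles within class and A+T decile. A+T content was 48.9%, 46.7% and 46.7% under the first 3 of these and 44.5% under the last, 47.3% among shared peaks alone, 48.7% by −log10 p, 47.0% with lists of equal length, 49.9% over the whole consensus peak and 50.2% outside promoters. The ARID3 share was 16.8% with −log10 q of at least 5 and 15.2% within class and A+T decile. AP-1, HNF4 and ARID3 shares were 2.95%, 1.82% and 9.85% within 50 bp of the summit and 23.0%, 8.41% and 65.8% over the whole peak, where all shared peaks were at 23.9%, 7.03% and 59.96%. Between 761 and 1320 of the 1320 members were selected again. The upper end was fixed in advance where only the sequence window or the promoter definition changed, or where the limit was dropped. Apart from the fewer lists and the other windows, the cause of these moves was not tested. No paired analysis was possible because the results come from no test and the labels give no pairing beyond a replicate number. Depth was known only as an inferred background, each genotype had 3 libraries, and percentiles compare ranks, so a peak can move because other peaks of its list move.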
